A study of Mus musculus with 6 samples.

Results

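Regulators of the G1 phase of the cell cycle and transcriptional targets of the tumour suppressor p53 were followed in small intestinal tumours of mice that lack both atypical protein kinase C genes in the epithelium. The 10 genes were taken by their symbols: Cdkn1a, Cdkn1b, Cdkn2a, Cdkn2b, Trp53, Mdm2, Ccng1, Ccnd1, Ccnd2 and Plk2. All 10 were among the 23393 named genes of the count table, and all 10 passed the filter on low counts. The DKO tumour group holds 3 small intestinal tumours from C57BL/6 mice of 12 weeks that were PKClambda f/f and PKCzeta f/f (floxed Prkci and Prkcz) and Villincre-positive. The WT intestine group holds 3 pieces of small intestine from C57BL/6 mice of the same age that were Villincre-negative and carried the same PKClambda f/f and PKCzeta f/f alleles. Villin-Cre is a recombinase driven by an epithelial promoter, and the RNA came from whole tissue, so stroma, muscle and leukocytes of both groups keep the genes intact. The title of the deposited sheet speaks of normal DKO tissue, whereas its column headings name DKO tumours, as the sample titles do. The headings were followed here, and every DKO tumour value rests on that reading. Genotype and tissue (tumour or normal intestine) changed together and cannot be told apart. The labels number the samples within a group without naming animals or litters, so p-values measure the spread between these samples.

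In G1, D-type cyclins bind CDK4 and CDK6 and start the phosphorylation of the retinoblastoma protein, which holds back E2F-driven transcription. Cip/Kip proteins (p21 from Cdkn1a, p27 from Cdkn1b) and INK4 proteins (p16 from Cdkn2a, p15 from Cdkn2b) restrain cyclin-CDK activity. p53, encoded by Trp53, responds to DNA damage and oncogene stress by activating genes such as Cdkn1a, Mdm2, Ccng1 and Plk2, and Mdm2 in turn marks p53 for degradation. In the intestine p21 and p27 are associated with exit from the cycle as cells leave the crypt, and loss of p16 and ARF function accompanies progression of serrated tumours.

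Cdkn2a, Plk2 and Ccnd1 rose in DKO tumours and Mdm2 fell on the main scaling, while the other 6 genes did not pass the threshold. Levels are CPM (each gene's counts relative to the TMM-scaled size of its library). Fold changes divide DKO tumour by WT intestine and are given as log2 values with a standard error (SE), and the threshold was a Benjamini-Hochberg adjusted p under 0.05 in edgeR's quasi-likelihood test over all 13866 genes tested. Of the 10 genes, 4 were called (3 higher and 1 lower), where 29.7% of all tested genes were called, 15.9% higher and 13.8% lower. Cdkn2a passed the filter only through its tumour counts and so could only rise. The groups did not overlap in 7 of the 10 genes, 5 of them higher and 2 lower in tumours, where 48% of all tested genes did not overlap, 25.1% higher and 22.9% lower. On library totals 6 did not overlap, 6 higher and 0 lower, with Ccnd2 separated and Mdm2 and Cdkn1b overlapping. The shares over all genes given above are for TMM scaling. None was computed on library totals, so these 6 have no background to be set against. On the main scaling the median log2 fold change of the 10 genes was 0.38, against 0.02 over all genes tested. No statement about the 10 genes as a group rests on these counts. Of all genes 2211 were called higher and 1911 lower, and with library totals in place of TMM 3779 and 1065, so directions below are relative to that choice.

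Totals over named genes ranged from 12491561 to 15799269 counts per library. WT intestine 1 stood apart within its group, with Spearman correlations of 0.976 and 0.979 to the other WT libraries, which correlated at 0.994. The tumours were spread more widely, with correlations of 0.964 to 0.984. Scaling matters for these genes, because with library totals the median log2 fold change over all genes shifted by 0.26 toward DKO tumours. Of the deleted genes, Prkcz was at 16.8 ± 2.33 CPM in DKO tumours and 66.9 ± 5.26 CPM in WT intestine (SD, n = 3 each), a difference of -1.99 on the log2 scale (SE 0.15; edgeR, adjusted p = 0.000233). Prkci was at 93.9 ± 12.0 CPM in DKO tumours and 70.6 ± 15.02 CPM in WT intestine (0.41, SE 0.19; edgeR, adjusted p = 0.134), so its total count was not lower in tumours. The deleted exons are not named in the labels, and a count over the whole gene, in whole tissue, does not check a deletion of part of it. Markers of several cell types differed between the groups. Of 9 tested fibroblast markers 6 rose and 1 fell, with a summed level of 930 to 1349 CPM in DKO tumours against 502 to 596 CPM in WT intestine, and none of the 10 listed was at 0 in all libraries. Markers of Paneth cells, secretory cells of the crypt base, fell in 7 of 7 cases (284 to 774 CPM in DKO tumours, 12769 to 15651 CPM in WT intestine). Of 8 smooth muscle markers 0 rose and 5 fell (732 to 1063 CPM in DKO tumours, 1410 to 1788 CPM in WT intestine). Of 11 tested leukocyte markers 4 rose and 1 fell (111 to 155 CPM in DKO tumours, 153 to 167 CPM in WT intestine). Enterocyte markers rose in 0 and fell in 6 of 10 cases (23311 to 28732 CPM in DKO tumours, 41879 to 71010 CPM in WT intestine), among them Dpp4. Crypt stem cell markers fell in 3 of 8 cases (170.4 to 333 CPM in DKO tumours, 457 to 849 CPM in WT intestine). Endothelial markers rose in 3 of 7 cases (88.7 to 123 CPM in DKO tumours, 50.7 to 68.1 CPM in WT intestine). Of 10 epithelial markers 2 rose and 1 fell (13071 to 19272 CPM in DKO tumours, 14251 to 18430 CPM in WT intestine). Fewer cells of a type and less RNA per cell cannot be told apart in such samples, and the part of tissue makeup in the results was not tested.

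**Figure D1:**
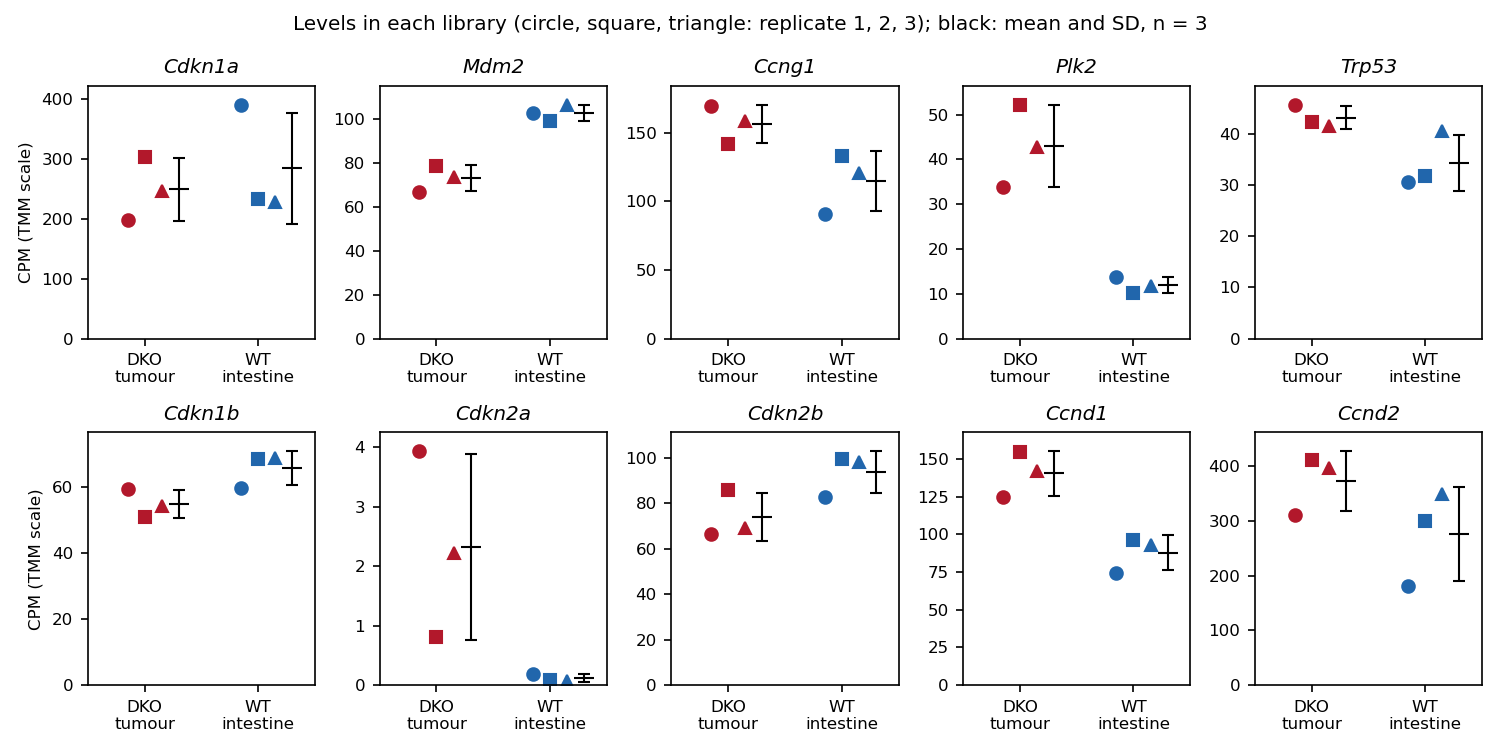
Level of each of the 10 genes in every library (CPM on the TMM scale, vertical axes from 0), with DKO tumours in red and WT intestine in blue, the symbol giving the replicate number and the black mark the mean and SD (n = 3). Plk2, Ccnd1 and Cdkn2a lie higher in all 3 tumours and Mdm2 lower, while the groups of Cdkn1a, Cdkn2b and Ccnd2 overlap.

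Targets of p53 among the 10 genes moved in different directions. Plk2, a polo-like kinase of G1 and the centrosome that p53 can induce, lies at chr13:110395046-110400844 (plus strand; coordinates here and below are GENCODE M21, GRCm38). Its level was 33.9, 52.2 and 42.8 CPM in the DKO tumours, in replicate order, against 13.8, 10.2 and 11.8 CPM in WT intestine. The lowest tumour was well above the highest control. The fold was 3.60 (95% interval 2.61 to 4.98), or 1.85 on the log2 scale (SE 0.20; edgeR, adjusted p = 0.000827), and the call held in all 14 fits, with log2 values between 1.69 and 2.11.

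Mdm2 (chr10:117688875-117710758, minus strand), the ubiquitin ligase that limits p53 and is itself a p53 target, was at 66.7, 78.5 and 73.4 CPM in DKO tumours, against 102, 99.1 and 106 CPM in WT intestine. The 3 tumours lay below the 3 controls, and the spread within each group was small. Its log2 fold change was -0.49 (SE 0.12; edgeR, adjusted p = 0.019). With library totals it was -0.24 (edgeR, adjusted p = 0.202), and the groups then overlapped, at 74.4, 85.5 and 79.4 CPM in tumours and 84.8, 93.4 and 104 CPM in WT intestine. The call also ended without WT intestine 2 (0.0591), WT intestine 3 (0.0664) or DKO tumour 3 (0.0812), with values between -0.55 and -0.43 over the 6 fits that left out a library.

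Ccng1 (chr11:40748552-40755311, minus strand), cyclin G1, a p53 target that recruits a phosphatase to Mdm2, was at 169, 142 and 158 CPM in DKO tumours, against 90.8, 133 and 121 CPM in WT intestine. All tumours were above all controls, with WT intestine 1 the lowest. Ccng1 had a log2 fold change of 0.45 (95% interval 0.06 to 0.84; edgeR, adjusted p = 0.0806), which does not pass the threshold, whereas with library totals it was 0.69 (edgeR, adjusted p = 0.0336). Relative to Mdm2 within the same library, a ratio that no scaling changes, the log2 ratio of Ccng1 to Mdm2 counts was 1.34, 0.85 and 1.11 in DKO tumours and -0.17, 0.42 and 0.18 in WT intestine. These groups did not overlap, and the mean difference was 0.96 on the log2 scale. It combines the changes of Ccng1 and Mdm2 given above and is no further result. How often ratios of other gene pairs separate the groups was not computed.

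Cdkn1a (chr17:29090976-29100727, plus strand), which encodes p21, was the most abundant of the 10 genes per length of transcript in both groups and showed no difference past the threshold. Cdkn1a stood at 198, 303 and 246 CPM in DKO tumours, against 390.4, 233 and 229 CPM in WT intestine. The high control was WT intestine 1, and the other libraries of both groups overlapped. The log2 fold change was -0.19 (95% interval -0.78 to 0.40; edgeR, adjusted p = 0.608), and it turned to 0.09 with library totals and to 0.10 without WT intestine 1. The interval covers folds from 0.581 to 1.32, so changes within that range were not resolved. The log2 ratio of Plk2 to Cdkn1a counts was nearly constant among tumours, at -2.55, -2.54 and -2.52, and was -4.82, -4.51 and -4.28 in WT intestine. Its difference between the groups combines the changes of Plk2 and Cdkn1a given above.

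Trp53 itself (chr11:69580359-69591873, plus strand) was at 45.8, 42.4 and 41.7 CPM in DKO tumours, against 30.6, 31.8 and 40.6 CPM in WT intestine. Tumours were higher in all 3 cases, with WT intestine 3 close below them. The log2 fold change of 0.33 (95% interval -0.01 to 0.68; edgeR, adjusted p = 0.127) did not pass the threshold, and with library totals it was 0.58 (edgeR, adjusted p = 0.0422). The log2 ratio of Mdm2 to Trp53 counts was 0.54, 0.89 and 0.82 in DKO tumours and 1.74, 1.64 and 1.39 in WT intestine, with no overlap and a mean difference of -0.84. This separation combines the changes of Mdm2 and Trp53 given above and is no further result. Messenger RNA says nothing of p53 protein, which is mainly controlled by degradation.

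The promoters of these targets are shown because a p53 motif occurs both before Mdm2, which was called lower, and before genes that did not pass the threshold. Each line gives the 250 bases before a RefSeq transcript start (build GRCm38.p6, 5′ to 3′ on the strand of the gene), with matches to the p53 response-element unit in capitals. The windows are Cdkn1a at chr17:29090729-29090978 (plus strand, the more upstream of its 2 starts), Mdm2 at chr10:117710759-117711008 (minus strand) and Ccng1 at chr11:40755287-40755536 (minus strand).
Cdkn1a: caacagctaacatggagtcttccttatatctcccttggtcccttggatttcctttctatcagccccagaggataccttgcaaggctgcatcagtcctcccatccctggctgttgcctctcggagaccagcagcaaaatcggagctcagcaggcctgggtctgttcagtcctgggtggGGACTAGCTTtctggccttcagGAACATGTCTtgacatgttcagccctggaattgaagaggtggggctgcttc
Mdm2: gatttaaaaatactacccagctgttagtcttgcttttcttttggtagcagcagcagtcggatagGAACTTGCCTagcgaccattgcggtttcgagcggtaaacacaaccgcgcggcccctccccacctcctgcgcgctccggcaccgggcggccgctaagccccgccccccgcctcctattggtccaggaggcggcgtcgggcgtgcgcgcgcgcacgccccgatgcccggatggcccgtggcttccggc
Ccng1: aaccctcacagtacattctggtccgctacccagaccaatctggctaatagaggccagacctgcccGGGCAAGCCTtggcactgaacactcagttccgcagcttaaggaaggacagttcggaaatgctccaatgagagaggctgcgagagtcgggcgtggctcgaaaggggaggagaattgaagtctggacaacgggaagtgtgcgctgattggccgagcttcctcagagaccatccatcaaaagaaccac
The unit is a 10-base consensus searched on both strands, and 7.13% of the 32851 windows of this length in the table hold it. Among the 10 windows found for 8 of the genes, 4 did, those of Cdkn1a, Mdm2, Ccng1 and Trp53. Cdkn1a carries 2 matches. The window of Plk2, the p53 target called higher, held none. Of the genes with a match, Mdm2 was lower in tumours, Cdkn1a was not separated, and Ccng1 and Trp53 lay higher without passing the threshold. A match describes letters only and is no evidence of binding.

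**Figure D2:**
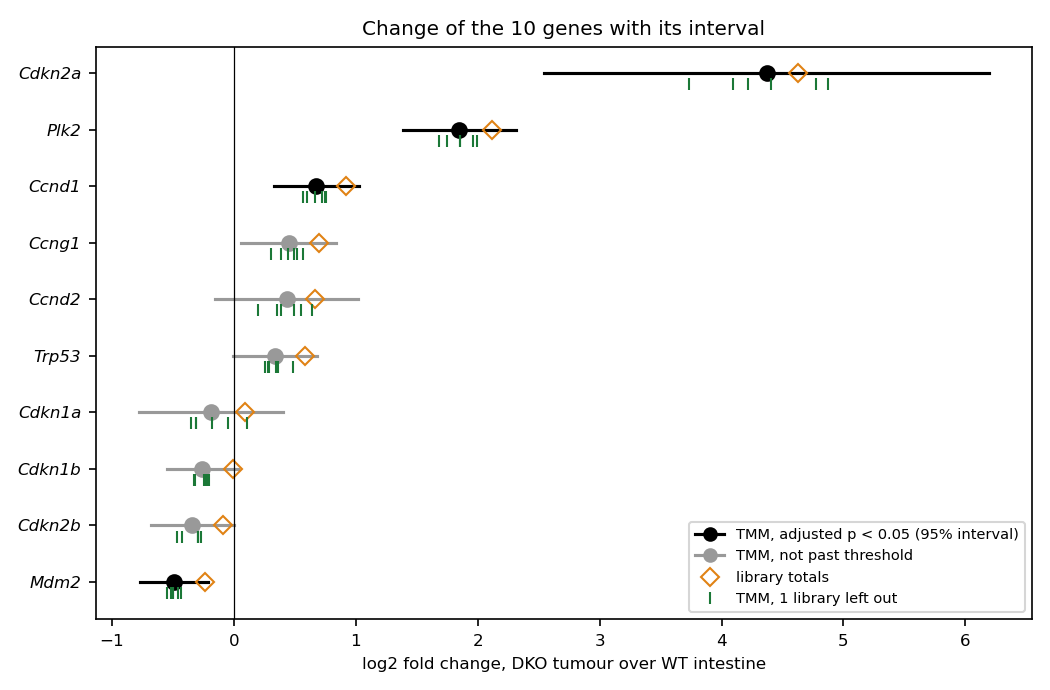
Log2 fold change of each of the 10 genes, DKO tumour over WT intestine, with 95% intervals; black marks passed the threshold and grey marks did not, diamonds use library totals, and green ticks leave out a library in turn. Cdkn2a, Plk2, Ccnd1, Ccng1, Trp53 and Ccnd2 stay above 0 in every fit, the direction of Cdkn2a being fixed by the filter. The diamonds lie to the right of the circles, and the ticks of Cdkn1a fall on both sides of 0.

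Beyond these 4, a list of 35 other p53 targets had 8 higher and 3 lower in DKO tumours, with 24 not past the threshold and a median log2 fold change of 0.28, against 0.02 over all genes tested. The share called was 31.4%, near the 29.7% of all genes. With library totals 15 rose and 2 fell, and 5 rose without DKO tumour 3. The largest rises were in Tnfrsf23, a decoy receptor for the death ligand TRAIL, and Phlda3, a repressor of Akt. Tnfrsf23 was at 25.9, 34.2 and 35.1 CPM in DKO tumours, against 6.80, 1.81 and 2.92 CPM in WT intestine (log2 fold change 3.07, SE 0.42; edgeR, adjusted p = 0.00212). Phlda3 was at 8.22, 7.99 and 9.34 CPM in DKO tumours, against 0.945, 0.708 and 1.75 CPM in WT intestine (log2 fold change 2.87, SE 0.33; edgeR, adjusted p = 0.001). Both genes were well separated between the groups. Phlda3 had 10, 9 and 27 counts in WT intestine, so it needed its tumour counts to pass the filter.

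Of the other rises, Bax, a pore-forming effector of apoptosis, was at 46.2, 48.0 and 55.8 CPM in DKO tumours and 35.2, 21.9 and 23.2 CPM in WT intestine, and rose by 0.90 on the log2 scale (SE 0.20; edgeR, adjusted p = 0.0138), and it no longer passed when WT intestine 2 (0.0577) or DKO tumour 3 (0.0586) was left out. Gdf15, a secreted stress cytokine, rose by 2.63 (SE 0.41), Eda2r, a receptor of the TNF receptor family, by 2.02 (SE 0.37), Aen, a nuclease, by 1.18 (SE 0.19), Zmat3, an RNA-binding protein, by 1.03 (SE 0.22) and Polk, a translesion polymerase, by 0.56 (SE 0.18). Without a library the call held in all 6 fits for Gdf15, Eda2r and Aen, in 5 for Zmat3 (0.0512 without DKO tumour 3) and in 1 for Polk (up to 0.155, held without DKO tumour 1). Eda2r had 39, 22 and 31 counts in DKO tumours and 5, 8 and 6 counts in WT intestine. Gdf15 had 68, 44 and 89 counts in DKO tumours and 9, 6 and 13 counts in WT intestine. Like Cdkn2a, Eda2r and Gdf15 passed the filter only through their tumour counts. Their rises and the 6 fits of each are therefore no independent support. Bbc3, which encodes the cell death protein PUMA, was at 4.29, 5.97 and 5.19 CPM in DKO tumours and 3.21, 2.60 and 3.51 CPM in WT intestine (log2 fold change 0.72; edgeR, adjusted p = 0.0538).

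Sesn1, Gadd45a and Btg2 fell. Sesn1, a sestrin that restrains mTORC1, was at 45.0, 37.7 and 35.1 CPM in DKO tumours, against 178, 196 and 177 CPM in WT intestine (log2 fold change -2.23, SE 0.14; edgeR, adjusted p = 0.000128). Gadd45a, a growth arrest and DNA damage gene, was at 35.6, 29.3 and 27.9 CPM in DKO tumours, against 101, 82.0 and 69.5 CPM in WT intestine (log2 fold change -1.44, SE 0.18; edgeR, adjusted p = 0.0013). Btg2, an antiproliferative gene, fell by 0.61 (SE 0.12; edgeR, adjusted p = 0.00911, but 0.058 without DKO tumour 3 and 0.0802 with library totals). Tnfrsf23, Phlda3, Sesn1 and Gadd45a kept their calls in all 6 fits that left out a library.

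Among p53 regulators, 0 of 14 tested genes rose and 3 fell, with Trp63 and Trp73 below the filter. The share called was 21.4%, below the 29.7% of all genes. Mdm4, an Mdm2 relative that blocks p53, was at 32.4, 24.3 and 27.5 CPM in DKO tumours and 34.6, 67.7 and 62.7 CPM in WT intestine (log2 fold change -0.97, SE 0.25; edgeR, adjusted p = 0.0248), and that call held in 2 of the 6 fits without a library, those without WT intestine 1 or DKO tumour 1. Sirt1, a deacetylase of p53, fell by 0.86 (SE 0.17) and Hipk2, a kinase of p53, by 1.12 (SE 0.28). The Hipk2 call ended without WT intestine 2, WT intestine 3 or DKO tumour 2 (adjusted p of 0.056 to 0.0688 in edgeR). With library totals 1 regulator was called higher and 0 lower, with Sirt1 at an adjusted p of 0.0503.

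**Figure D3:**
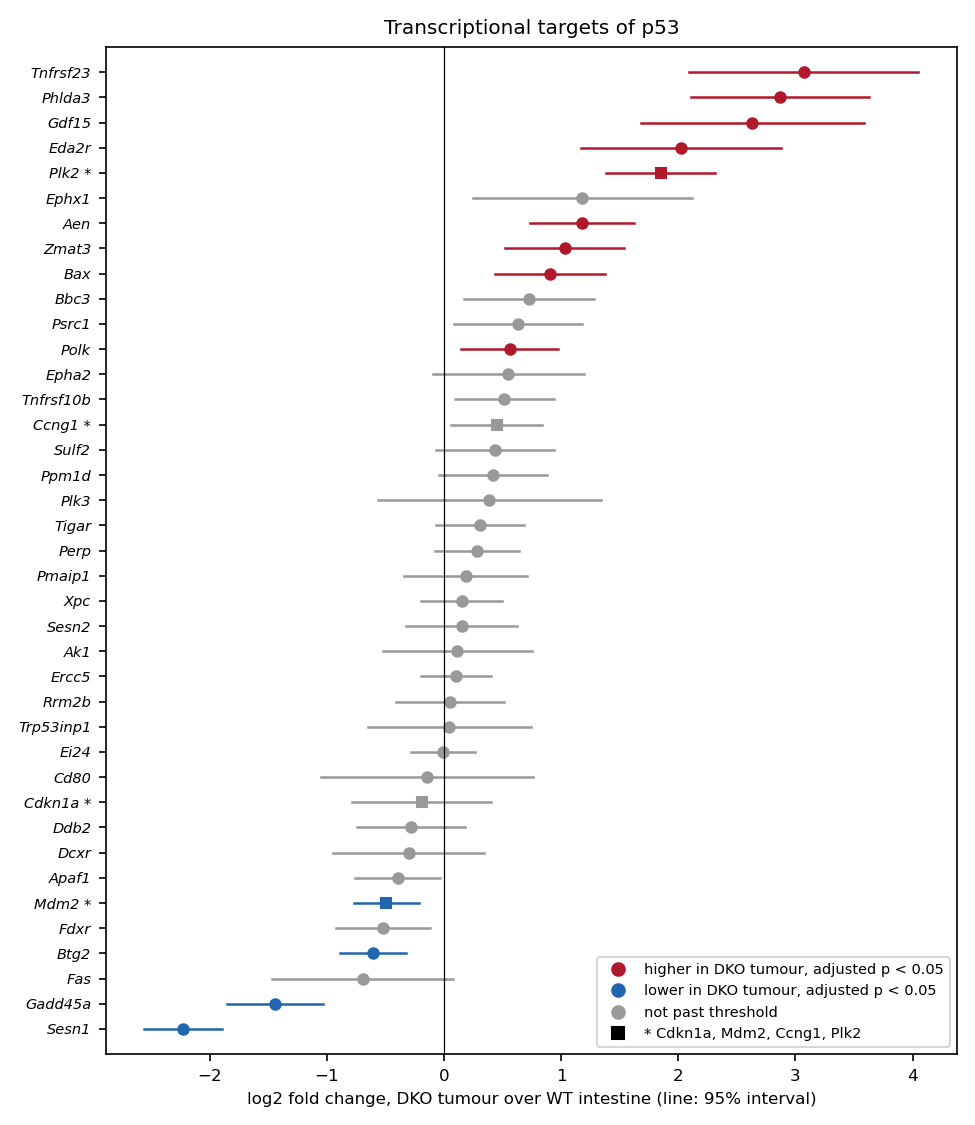
Log2 fold change with 95% intervals of 39 p53 targets, DKO tumour over WT intestine, with Cdkn1a, Mdm2, Ccng1 and Plk2 as squares; red and blue mark genes called higher and lower in DKO tumours. Plk2 lies among the rises headed by Tnfrsf23 (3.07), Mdm2 among the falls that end with Sesn1 (-2.23), and Cdkn1a among the grey genes near 0.

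Of the neighbouring INK4 genes of chromosome 4, Cdkn2a rose and Cdkn2b did not pass the threshold. Cdkn2a (chr4:89274471-89294653, minus strand), which encodes p16 and, in another reading frame, the Mdm2 inhibitor ARF, had 66, 12 and 30 counts in the DKO tumours, against 2, 1 and 1 counts in WT intestine. These are 3.93, 0.805 and 2.22 CPM in DKO tumours and 0.189, 0.0787 and 0.0649 CPM in WT intestine. It was detected in every library, and the lowest tumour lay above the highest control. Pooled over each group, 108 counts in DKO tumours against 4 counts in WT intestine gave a ratio of 23.1 with a 95% exact (Clopper-Pearson) interval of 8.77 to 86.4, which covers counting error only. The ratio was 14.3 without DKO tumour 1 and 30.7 without DKO tumour 2. The fitted log2 fold change was 4.37 (SE 0.79; edgeR, adjusted p = 0.00622) and 3.74 to 4.88 in the 6 fits that left out a library, all of them called. Cdkn2a entered the test only through its counts in tumours, so among genes that passed the filter this way a rise is the only possible outcome. In tumours it remained the scarcest of the 10 genes, at 2.59 CPM per kb of transcript.

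Relative to its mean, Cdkn2a varied more among the tumours than any other of the 10 genes, at 2.32 ± 1.56 CPM (SD, n = 3). Some marker sums had the same order over the 3 tumours, highest in tumour 1 and lowest in tumour 2, and others did not. Epithelial markers ran the other way, at 13071, 19272 and 17507 CPM. Fibroblast, endothelial, enterocyte, Paneth cell and ileal sums had other orders. Smooth muscle markers summed to 1063, 732 and 889 CPM in the DKO tumours, leukocyte markers to 155, 111 and 139 CPM, and crypt stem cell markers to 333, 170.4 and 179 CPM. Duodenal markers summed to 7365, 142 and 1841 CPM in the DKO tumours and to 105 to 132 CPM in WT intestine, with all 4 tested of 5 called higher and none at 0 in all libraries. Ileal markers summed to 9.11, 151 and 5.71 CPM in the DKO tumours and to 48.7 to 71.4 CPM in WT intestine, with 0 of 2 tested called and Hoxb13 and Hoxd10 of the 5 listed at 0 in all libraries. An order of 3 libraries that some sums share and others do not singles out none of them, and their part in the level of Cdkn2a was not tested.

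Cdkn2a has 2 promoters, and its single row in the table sums both transcripts, so p16 and ARF cannot be told apart here. The windows are shown to mark where these starts lie. The upstream window, before the ARF exon, is chr4:89294620-89294869 (minus strand), and the downstream window, before the p16 exon, is chr4:89282193-89282442 (minus strand), with the starts 12427 bases apart. Capitals mark the GC box GGGCGG, searched on both strands and held by 32.7% of all windows.
Cdkn2a ARF start: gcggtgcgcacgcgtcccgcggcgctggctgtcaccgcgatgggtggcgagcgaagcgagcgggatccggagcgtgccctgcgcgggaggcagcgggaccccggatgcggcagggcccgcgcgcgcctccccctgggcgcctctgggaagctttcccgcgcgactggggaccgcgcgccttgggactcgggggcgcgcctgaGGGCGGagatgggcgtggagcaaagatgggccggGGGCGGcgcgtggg
Cdkn2a p16 start: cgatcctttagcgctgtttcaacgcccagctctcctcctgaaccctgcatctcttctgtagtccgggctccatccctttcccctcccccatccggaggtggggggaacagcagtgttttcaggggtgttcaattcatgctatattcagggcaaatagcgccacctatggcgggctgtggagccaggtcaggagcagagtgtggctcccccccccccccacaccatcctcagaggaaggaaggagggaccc
The upstream window holds 2 such boxes and 78.4% G or C, and the downstream window holds 0 boxes and 60% G or C, against 53.6% in the Cdkn2b window. None of the 10 windows held the letters searched for AP-1 (TGANTCA, in 6.75% of all windows), TEAD (GGAATG, 12.6%), E2F (TTTCGCGC or TTTGGCGC, 0.654%) or the E-box (CACGTG, 6.02%), each on both strands, which says nothing about binding elsewhere. Other spellings of the E2F site were not searched. One of them, TTTCCCGC, stands in the ARF window above, so the windows are not shown to lack E2F sites.

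Cdkn2b (chr4:89306299-89311039, minus strand), which encodes p15 and starts 16413 bases from the ARF start, was at 66.6, 86.1 and 69.2 CPM in DKO tumours, against 83.0, 99.7 and 98.3 CPM in WT intestine. The groups overlapped, since DKO tumour 2 was above WT intestine 1. Cdkn2b had a log2 fold change of -0.34 (95% interval -0.68 to 0.00; edgeR, adjusted p = 0.119), and -0.09 with library totals. The log2 ratio of Cdkn2b to Cdkn2a counts was 4.08, 6.74 and 4.96 in DKO tumours and 8.78, 10.31 and 10.56 in WT intestine, with no overlap. In WT intestine its denominators were 2, 1 and 1 counts, so this separation restates the Cdkn2a counts and is no further result.

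Cdkn1b (chr6:134920401-134925513, plus strand), which encodes p27, was at 59.7, 51.1 and 54.3 CPM in DKO tumours, against 59.8, 68.7 and 68.9 CPM in WT intestine. The groups met without overlapping, and on library totals they overlapped. The log2 fold change was -0.26 (95% interval -0.55 to 0.04; edgeR, adjusted p = 0.161). Of 4 other CDK inhibitors, Cdkn3, a phosphatase of CDKs, rose (log2 fold change 0.74, SE 0.22; edgeR, adjusted p = 0.0382), though in 0 of the 6 fits without a library, and Cdkn2c, which encodes p18, fell (-1.04, SE 0.33; edgeR, adjusted p = 0.0478), held in 1 of the 6, that without DKO tumour 1. Cdkn1c, which encodes p57, was at 7.39, 3.02 and 3.71 CPM in DKO tumours and 7.84, 3.46 and 4.29 CPM in WT intestine (-0.13; edgeR, adjusted p = 0.845, and 0.16 with library totals).

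Of the D-type cyclins, Ccnd1 rose and Ccnd2 did not pass the threshold. Ccnd1 (chr7:144929931-144939925, minus strand), cyclin D1, was at 125, 154 and 142 CPM in DKO tumours, against 74.4, 96.4 and 92.7 CPM in WT intestine. Every tumour was above every control. Ccnd1 rose 1.60-fold (95% interval 1.25 to 2.03), or by 0.68 on the log2 scale (SE 0.15; edgeR, adjusted p = 0.0138). The call ended without DKO tumour 3 (0.0575), where the log2 value was 0.67. Oraov1, the annotated neighbour on the opposite strand whose exons overlap Ccnd1, had 259, 219 and 207 counts in DKO tumours and 200, 268 and 321 counts in WT intestine. Ccnd1 had 1914 to 2299 counts in tumours and 787 to 1427 counts in WT intestine, so Oraov1 holds fewer in both groups. Annotated exons on the opposite strand also overlap Cdkn1a and Ccnd2. Whether counting used strand is not given in the sources used here.

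Ccnd2 (chr6:127125162-127152193, minus strand), cyclin D2, was at 311, 412 and 396 CPM in DKO tumours, against 181, 299.8 and 348 CPM in WT intestine. The groups overlapped, since WT intestine 3 was above DKO tumour 1, and WT intestine 1 was the lowest of all. For Ccnd2 the log2 fold change was 0.43 (95% interval -0.15 to 1.02; edgeR, adjusted p = 0.228), and 0.20 without WT intestine 1. With library totals it was 0.66 (edgeR, adjusted p = 0.11), and the groups did not overlap, at 347, 449 and 428 CPM in DKO tumours and 149.6, 283 and 339.9 CPM in WT intestine. Per kb of the longest coding transcript, Ccnd2 was at 58.9 CPM and Ccnd1 at 37.5 CPM in DKO tumours, against 43.6 and 23.5 CPM in WT intestine. The log2 ratio of Ccnd2 to Ccnd1 counts overlapped between the groups, at 1.32, 1.42 and 1.48 in DKO tumours and 1.28, 1.64 and 1.91 in WT intestine, so a different response of the D cyclins was not resolved. Ccnd3, cyclin D3, was at 27.7, 35.2 and 31.3 CPM in DKO tumours and 29.4, 21.7 and 23.1 CPM in WT intestine (log2 fold change 0.35; edgeR, adjusted p = 0.152).

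The kinase partners of D cyclins did not pass the threshold, and Rb1 fell. Cdk4, the kinase partner of D cyclins, was at 78.9, 71.8 and 59.2 CPM in DKO tumours and 92.2, 79.2 and 79.7 CPM in WT intestine (log2 fold change -0.26; edgeR, adjusted p = 0.215, turning to 0.01 with library totals). Cdk6 was at 5.72, 5.30 and 4.08 CPM in DKO tumours and 2.08, 4.40 and 8.12 CPM in WT intestine (0.03; edgeR, adjusted p = 0.962). Rb1, which encodes the retinoblastoma protein, was at 80.7, 80.9 and 82.5 CPM in DKO tumours, against 179, 199 and 176 CPM in WT intestine. It fell by 1.18 on the log2 scale (SE 0.12; edgeR, adjusted p = 0.00065), and in all 6 fits without a library. Its relatives Rbl2 (-0.53, SE 0.14) and Rbl1 (-0.51, SE 0.16) were also called lower, each in 2 of those 6 fits. Of 21 G1 cyclins, kinases, pocket proteins and E2Fs, 1 rose and 5 fell, a share called of 28.6% against 29.7% of all genes. The rise was E2f6, a repressive E2F (0.56, SE 0.15, held in 2 of those 6 fits), and the further falls were Ccng2, cyclin G2 (-1.31, SE 0.22), and Cdc25a, a CDK-activating phosphatase (-0.47, SE 0.12). Rb1 and Ccng2 were the falls that held in every fit, and with library totals the list had 4 higher and 2 lower. Without WT intestine 2 it had 0 higher and 2 lower, as without WT intestine 3 or DKO tumour 3. E2f1 was at 8.04, 9.67 and 5.93 CPM in DKO tumours and 6.71, 6.53 and 5.58 CPM in WT intestine (0.33; edgeR, adjusted p = 0.297).

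Genes of S phase and mitosis rose in 8 of 25 cases and fell in 0, with a median log2 fold change of 0.39. The share called was 32%, near the 29.7% of all genes. With library totals 13 rose, and 4 rose without WT intestine 2, 5 without DKO tumour 2 and 5 without DKO tumour 3, while 2 were called lower without WT intestine 1. Rrm2, a ribonucleotide reductase subunit, was at 60.7, 67.9 and 65.2 CPM in DKO tumours, against 13.5, 18.6 and 23.5 CPM in WT intestine (log2 fold change 1.79, SE 0.20). Mcm3, a helicase subunit, rose by 1.07 (SE 0.13), Pcna, the polymerase clamp, by 0.76 (SE 0.13) and Mybl2, a regulator of mitotic genes, by 1.28 (SE 0.28). Mki67, the proliferation marker, was at 166, 146 and 126 CPM in DKO tumours and 104, 240.0 and 242 CPM in WT intestine (-0.42; edgeR, adjusted p = 0.33), and without WT intestine 1 it was called lower (-0.73; edgeR, adjusted p = 0.0158). Of 20 regulators of the INK4 locus, p27 and D cyclins, 2 rose and 2 fell, a share called of 20% against 29.7% of all genes. Myc, a driver of Ccnd2 transcription, was at 33.7, 42.2 and 34.5 CPM in DKO tumours and 21.5, 22.02 and 26.1 CPM in WT intestine (0.66, SE 0.15; edgeR, adjusted p = 0.0153). Cks1b, a cofactor of p27 degradation, rose by 0.74 (SE 0.17), a call that ended without WT intestine 2 or 3, and that of Myc ended without WT intestine 2. Dmtf1, an activator of ARF, fell by 0.55 (SE 0.16) and Klf4, an activator of Cdkn1a, by 0.63 (SE 0.18), each held in 2 of the 6 fits without a library. With library totals 5 regulators were called higher and 0 lower. Bmi1, a Polycomb repressor of the Cdkn2a locus, was at 41.5, 41.1 and 38.7 CPM in DKO tumours and 23.4, 33.0 and 34.0 CPM in WT intestine (0.42, 95% interval 0.04 to 0.80; edgeR, adjusted p = 0.0899, and 0.0403 with library totals).

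Cdkn1a and Cdkn2a are also read as markers of senescence. Of 21 tested genes of a senescence-associated list, 14 rose and 2 fell, a share called of 76.2% against 29.7% of all genes, with a median log2 fold change of 1.45. Il6 and Cxcl2 of the 23 listed were below the filter. The list summed to 1389 to 1630 CPM in DKO tumours and to 2059 to 2732 CPM in WT intestine. Fibroblast markers had a like share called, 77.8%. Igfbp5, a binding protein of insulin-like growth factors, was at 452, 342 and 592 CPM in DKO tumours, against 20.3, 20.5 and 27.3 CPM in WT intestine (4.34, SE 0.26). Plaur, the urokinase receptor, rose by 3.89 (SE 0.34) and Mmp10, a matrix protease, by 2.27 (SE 0.16). The members that fell were Hmga2, a chromatin protein, and Dpp4, also a brush border peptidase, the call of Hmga2 holding in 2 of the 6 fits. Lmnb1, a lamin whose loss marks senescent nuclei, is among the 14 that rose (0.52, SE 0.16; edgeR, adjusted p = 0.0457), though in 1 of the 6 fits without a library, that without DKO tumour 1. The 14 rises are therefore not all in the direction of senescence. Glb1, the source of senescence-associated galactosidase, was at 33.0, 31.3 and 31.8 CPM in DKO tumours and 32.4, 34.3 and 36.5 CPM in WT intestine (-0.10; edgeR, adjusted p = 0.549, and 0.15 with library totals). Many members of this list are secreted by fibroblasts and leukocytes, whose marker sums are given above, and the part of those cells was not tested.

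**Figure D4:**
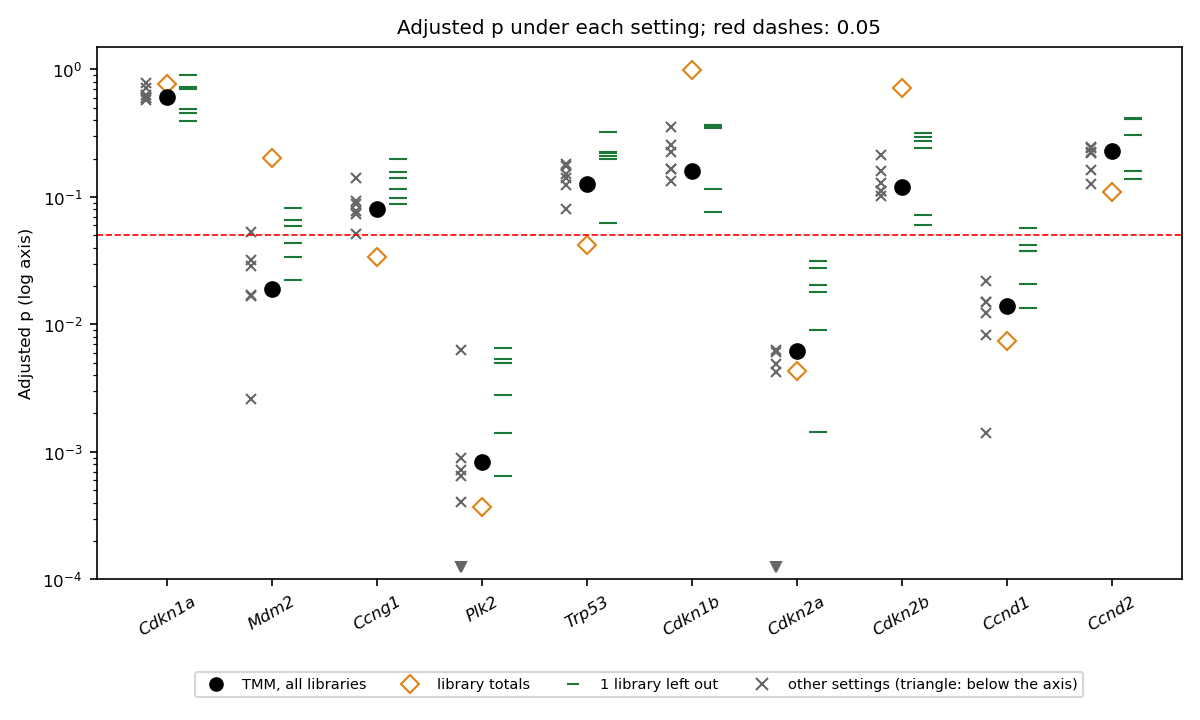
Adjusted p of each of the 10 genes (log axis) under the main fit, library totals, 6 fits that leave out a library and the other settings, with the threshold of 0.05 dashed. Plk2 lies below the line in every fit, as does Cdkn2a wherever it was tested. The direction of Cdkn2a was fixed by the filter, so its calls are no independent support. Ccnd1 and Mdm2 cross the line, Ccng1 and Trp53 are below it with library totals alone, and the other 4 genes stay above it.

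Levels per length, averaged over libraries, put Cdkn1a highest at 120 CPM per kb in DKO tumours and 137 CPM per kb in WT intestine. In WT intestine Cdkn2b (67.4), Ccnd2 (43.6), Ccng1 (32.7), Mdm2 (32.6), Ccnd1 (23.5), Trp53 (18.4), Cdkn1b (14.5), Plk2 (4.26) and Cdkn2a (0.124 CPM per kb) followed. In DKO tumours the order was Ccnd2 (58.9), Cdkn2b (53.2), Ccng1 (44.6), Ccnd1 (37.5), Trp53 and Mdm2 (23.2 each), Plk2 (15.3), Cdkn1b (12.1) and Cdkn2a (2.59 CPM per kb). Neighbours whose ranges over the libraries overlapped in tumours were Ccnd2 and Cdkn2b, Cdkn2b and Ccng1, Ccng1 and Ccnd1, Trp53 and Mdm2, and Plk2 and Cdkn1b. In WT intestine they were Ccnd2 and Ccng1, Ccng1 and Mdm2, and Ccnd1 and Trp53. The order within these pairs is not resolved. The genes whose centred log2 profile over the 6 libraries was nearest to that of Cdkn1a were Cdipt, Nudt22, Slc22a17, Ccdc120 and Fam214b, with root mean square differences of 0.018, 0.025, 0.051, 0.062 and 0.064 among 13735 profiles. Like Cdkn1a, these 5 were highest in WT intestine 1, and none passed the threshold. Both traits follow from choosing them by the Cdkn1a profile and are no further result.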

How the data were processed

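Poly(A) RNA of whole small intestinal tissue was sequenced with a directional kit and single-end reads, per the labels' protocols. The authors deposited raw read counts per gene symbol, 1 column per sample, in a sheet titled for normal DKO tissue whose headings name DKO tumours. STAR, DESeq2 and mm10 are named, without versions, in the submitters' processing notes. For the read counter, the annotation and its strand handling: not given in the sources used here. Of 23420 rows, 27 carried spreadsheet dates and were set aside (0.218% to 0.241% of counts).

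The 13866 genes that reached 10 counts in 3 libraries or more were tested with edgeR 4.0.16 (R 4.3.3), quasi-likelihood, after TMM scaling. Intervals of 95% are the estimate ± its SE times the t quantile, and the SE was taken from the F statistic. Exact intervals used scipy 1.17.1. Coordinates and transcript lengths are from GENCODE M21 (GRCm38). The test was checked on simulated data. It recovered 49 of 100 genes changed 2-fold and 96 of 100 changed 4-fold, with 5 false calls among 150. Alternatives were DESeq2 1.42.0, other scalings, other filters, a replicate block and leaving out each library with the tested genes kept.

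The genes, lists and tests were chosen with earlier results of these data known. Named genes are the 10 members, the targeted genes, up to 4 called genes per list, 12 fixed genes and the 5 nearest to Cdkn1a. Others, Gdf15, Eda2r, Aen, Zmat3, Polk, Btg2, Rbl1, E2f6, Bmi1, Lmnb1, Hmga2 and Glb1, were chosen after their values were seen. Reads are not known to carry molecular identifiers.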

Additional observations from a re-analysis of the deposited data

How the results depend on the processing

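Of the 10 genes, 3 were called higher and 1 lower; with library totals the counts were 5 and 0, with Ccng1 and Trp53 added and Mdm2 lost, and leaving out a library gave 2 to 3 higher and 0 to 1 lower. Over all genes 2211 were higher and 1911 lower, with library totals 3779 and 1065, and without 1 library 1159 to 2368 and 883 to 2129 (1159 and 1072 when WT intestine 2 was left out, 1177 and 883 when DKO tumour 3 was). Other p53 targets called higher numbered 15 with library totals and 5 to 11 without a library, against 8. DESeq2, its size factors, upper-quartile scaling and both other filters kept these counts within 1.5 times. Same-numbered samples did not deviate together (correlations of 0.014, -0.013 and -0.033, against -0.124 to 0.122 for the other pairs). The labels do not say whether the numbers pair samples, and 3 such correlations cannot settle it. With the replicate block 0 genes of the 10 were lower, Mdm2 having an adjusted p of 0.0534 in edgeR. Signs turned with library totals for Cdkn1a (0.093), Cdk4 (0.0086), Cdkn1c (0.16), Cdipt (0.083), Nudt22 (0.10), Slc22a17 (0.036), Ccdc120 (0.14), Fam214b (0.014) and Glb1 (0.15), none called; without a library the values ranged from -0.36 to 0.10 for Cdkn1a, -0.32 to 0.63 for Cdk6, -0.61 to 0.28 for Cdkn1c, -0.37 to 0.10 for Cdipt, -0.36 to 0.11 for Nudt22, -0.38 to 0.045 for Slc22a17, -0.34 to 0.14 for Ccdc120 and -0.40 to 0.00063 for Fam214b. Cdkn2a had no value at the filter of 50 counts. At 3 libraries a group, changes as small as those of Cdkn1b or Trp53 are not resolved from no change.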
